A study of Homo sapiens with 4 samples.

Results

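HMOX1, BLVRB, TXNRD1, SQSTM1 and UGDH encode enzymes and an adaptor of heme breakdown, redox defence, selective autophagy and glucuronate supply. These 5 genes of 14884 named on the arrays were chosen by their measured differences between cells given BRPF3 siRNA and cells given control siRNA, so their values in that comparison are given as a description, without a test. Each gene had 1 named probe set, and all 5 were bright enough to be among the 10696 genes tested across the arrays. The groups were U2OS cells, a human osteosarcoma line, transfected for 48 hours with siRNA at 50 nM, directed either at BRPF3, a scaffold protein of histone acetyltransferase complexes, or at no target. Each group held 2 arrays, labelled biological replicates. The labels name no siRNA sequence and only 1 siRNA treatment against BRPF3, and BRPF3 itself is not analysed here, so the depletion was not checked on these arrays.

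Heme oxygenase 1, the product of HMOX1, opens the ring of heme and releases iron, carbon monoxide and biliverdin, which biliverdin reductases convert to bilirubin. Transcription of HMOX1 is held down by the repressor BACH1 and driven by NRF2 (gene NFE2L2), a factor that KEAP1 and the ubiquitin ligase CUL3 mark for destruction until oxidants or electrophiles reach KEAP1. NRF2 with a small MAF protein binds the antioxidant response element, found near many genes of glutathione, thioredoxin and quinone metabolism. SQSTM1, or p62, carries ubiquitinated cargo into autophagosomes and also binds KEAP1.

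On the deposited log2 scale, 4 of the 5 genes were higher after BRPF3 siRNA and UGDH was lower. HMOX1 read 10.22 and 10.20 on the BRPF3 siRNA arrays, against 8.66 and 8.60 on the control siRNA arrays. The 2 arrays of each group lay within 0.062 of each other, and the nearest values of the groups were 1.54 apart. The log2 difference was 1.58 ± 0.08 (here and below, ± gives the SE from limma, with n = 2 arrays in each group), a 3.0-fold higher level, and 1 tested gene, KRT75, had a larger positive difference.

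BLVRB, which reduces biliverdin IX beta and flavins, read 10.35 and 10.32 after BRPF3 siRNA, against 9.72 and 9.72 after control siRNA. Its control arrays differed by 0.0038 and its BRPF3 siRNA arrays by 0.022, around a difference of 0.61 ± 0.08 (1.53-fold). SQSTM1 read 8.68 and 8.60 after BRPF3 siRNA, against 8.12 and 8.04 after control siRNA. Its groups did not overlap, with a difference of 0.56 ± 0.08 (1.47-fold).

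TXNRD1, the cytosolic selenoprotein that reduces thioredoxin with NADPH, read 8.55 and 8.71 after BRPF3 siRNA, against 8.20 and 8.15 after control siRNA. Of the 5 genes it had the smallest difference, 0.45 ± 0.09 (1.37-fold), and the widest spread within a group, 0.16 between the BRPF3 siRNA arrays. UGDH, which oxidises UDP-glucose to UDP-glucuronate, read 9.61 and 9.58 after BRPF3 siRNA, against 10.12 and 10.24 after control siRNA. Both BRPF3 siRNA arrays lay below both control siRNA arrays, and the level was 1.5-fold lower (log2 difference -0.59 ± 0.08).

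**Figure D1:**
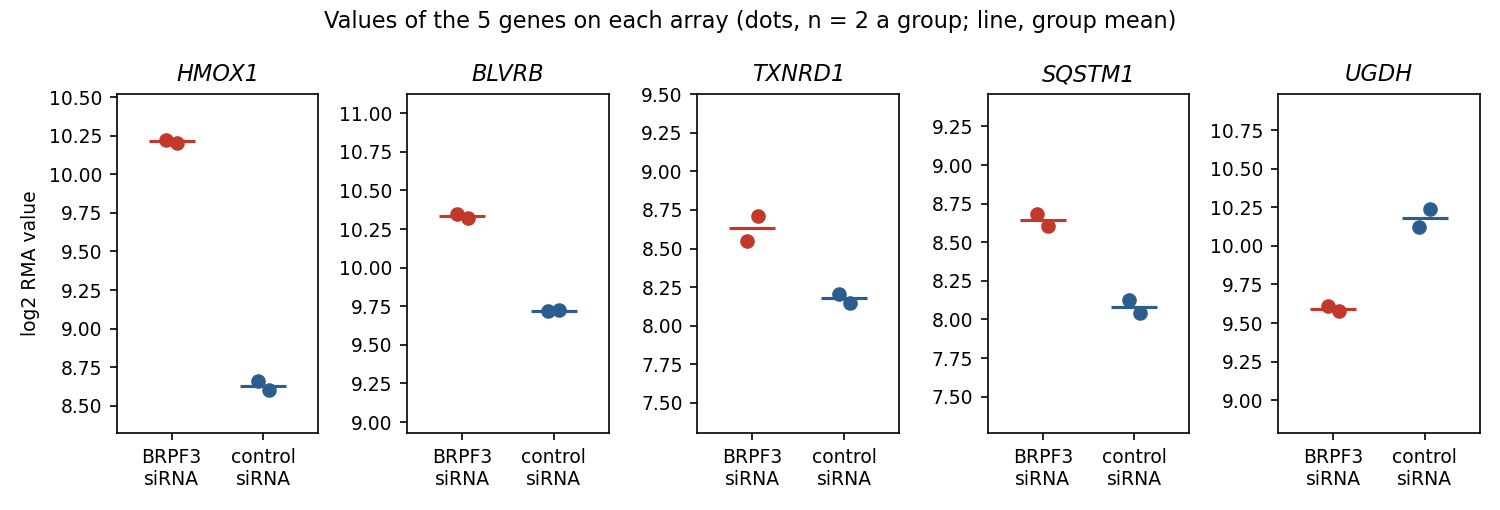
Log2 RMA values of HMOX1, BLVRB, TXNRD1, SQSTM1 and UGDH on each array, with BRPF3 siRNA left of control siRNA, dots for the 2 arrays of a group and a line for their mean; each panel spans the same log2 range. The BRPF3 siRNA arrays lie above the control siRNA arrays for the first 4 genes and below them for UGDH.

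Across all tested genes 27.3% had both BRPF3 siRNA arrays above both control siRNA arrays and 35.9% had both below. The call rule used for other genes, limma with a Benjamini-Hochberg adjusted p under 0.05 over the 10696 tested genes, was met by 15.8% of them, 6.32% higher and 9.44% lower. The 676 higher and 1010 lower genes became 764 and 718 after quantile normalization and 766 and 736 after cyclic loess normalization. HMOX1, BLVRB, TXNRD1 and SQSTM1 were among the genes called higher and UGDH among those called lower, which follows from how they were chosen. An exact permutation test of 2 arrays against 2 cannot give a two-sided p below 0.333, so the calls rest on the variance that limma shares between genes.

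By the root mean square difference between centred profiles over the 4 arrays, the genes most like HMOX1 were KRT75, a hair follicle keratin (0.043), NIPAL4, a magnesium transporter (0.091), GPNMB, a lysosomal glycoprotein (0.10), ADAM12, a metalloprotease (0.12), and FST, the activin antagonist follistatin (0.13). Their log2 differences ran from 1.37 ± 0.09 for FST to 1.61 ± 0.08 for KRT75. The arrays of HMOX1 lay within 0.062 of each other in each group. The measure therefore mostly finds genes with a difference of like size, the value by which HMOX1 was chosen. Shared regulation was not tested.

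RefSeq promoter windows of build GRCh38.p14 were found for 4 of the 5 genes, BLVRB, TXNRD1, SQSTM1 and UGDH, with 7 start sites in all. The 250 bases before each start were searched on both strands for the core of the antioxidant response element, TGACNNNGC. Of all 35116 windows 10.9% held it, as did 26.4% of the 53 windows of the NRF2 target list described below. Both TXNRD1 windows held 1 match, while the single windows of BLVRB and UGDH and the 3 of SQSTM1 held none. The AP-1 element TGACTCA, which can lie inside that core, was in 0 of the 7 windows and in 4.2% of all windows. The TXNRD1 sequences are shown because they carry the matches, marked in capitals, and that of UGDH as an example without a match. Among the genes without a match BLVRB and SQSTM1 were higher and UGDH was lower. Of the 42 NRF2 target genes with windows 33.3% held a match, against 13.2% of all 27305 genes. Sequence beyond the 250 bases was not searched, and any link of matches to the differences was not tested. HMOX1 had no window. The first TXNRD1 window (chr12:104215529-104215778, plus strand) has it on the printed strand, starting 99 bases before the start site. The second (chr12:104286782-104287031, plus strand) has it on the opposite strand, with its first printed base 102 bases before the start site. The UGDH window is at chr4:39527440-39527689, minus strand. A match is a stretch of letters, and binding was not measured.
TXNRD1 upstream start: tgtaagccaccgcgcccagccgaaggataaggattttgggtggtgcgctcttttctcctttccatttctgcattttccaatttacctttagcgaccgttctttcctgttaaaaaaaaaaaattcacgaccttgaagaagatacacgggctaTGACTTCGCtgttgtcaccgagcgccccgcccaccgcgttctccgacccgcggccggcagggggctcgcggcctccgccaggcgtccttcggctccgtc
TXNRD1 downstream start: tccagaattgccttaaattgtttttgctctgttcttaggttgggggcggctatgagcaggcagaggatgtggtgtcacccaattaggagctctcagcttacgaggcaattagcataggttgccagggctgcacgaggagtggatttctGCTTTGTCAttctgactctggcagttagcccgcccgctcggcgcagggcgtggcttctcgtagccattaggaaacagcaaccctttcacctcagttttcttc
UGDH: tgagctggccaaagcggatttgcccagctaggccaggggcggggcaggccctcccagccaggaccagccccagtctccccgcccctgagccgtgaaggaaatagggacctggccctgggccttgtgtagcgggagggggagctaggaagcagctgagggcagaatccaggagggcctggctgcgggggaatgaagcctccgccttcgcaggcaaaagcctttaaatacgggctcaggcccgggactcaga

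The other genes of these pathways were taken from 14 lists, with the 5 genes above left out. Of 284 listed genes 172 were named and 161 were tested, and 10 rose and 22 fell after BRPF3 siRNA (19.9% called, against 15.8% of all tested genes). The median log2 difference over all tested genes was -0.03. The 15.8% called over all tested genes is the background for the count of each list below. For counts at an unadjusted p under 0.05 in limma it is 3706 of the 10696 tested genes. With an intensity trend in eBayes 1036 of 10696 genes were called higher and 1609 lower. With the intensity filter at the 75th percentile 857 of 6407 were called higher and 1326 lower. These are the backgrounds for list counts in those settings.

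Of 56 genes on the NRF2 target list 24 were named and 21 were tested, so the counts cover only part of the list. Of the 21 tested genes 1 rose and 1 fell, which is 9.52% called, and the other 19 were not called. The median log2 difference was -0.01. The risen gene was RIT1, a small GTPase (0.35 ± 0.09, adjusted p = 0.0454), and the fallen gene was CES1, a carboxylesterase (-0.39 ± 0.08, adjusted p = 0.0323). With the mean of all its probe sets CES1 did not pass (adjusted p = 0.455). CBR1, a carbonyl reductase and the lowest of the list, did not pass (-0.40 ± 0.11, adjusted p = 0.0645). OSGIN1, an oxidative stress induced growth inhibitor, had the largest positive difference of the list but did not pass (0.37 ± 0.12, adjusted p = 0.0827). TXN, the thioredoxin that TXNRD1 reduces (-0.13 ± 0.09, adjusted p = 0.355), SRXN1, the sulfiredoxin (-0.21 ± 0.10, adjusted p = 0.203), and GSR, the glutathione reductase (-0.28 ± 0.08, adjusted p = 0.0724), all had differences below 0 that did not pass. The median of the list turned to 0.09 after quantile and 0.08 after cyclic loess normalization. Several of the most used NRF2 targets, NQO1, GCLM, GCLC, SLC7A11, ME1, FTH1 and FTL, are not analysed here.

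**Figure D2:**
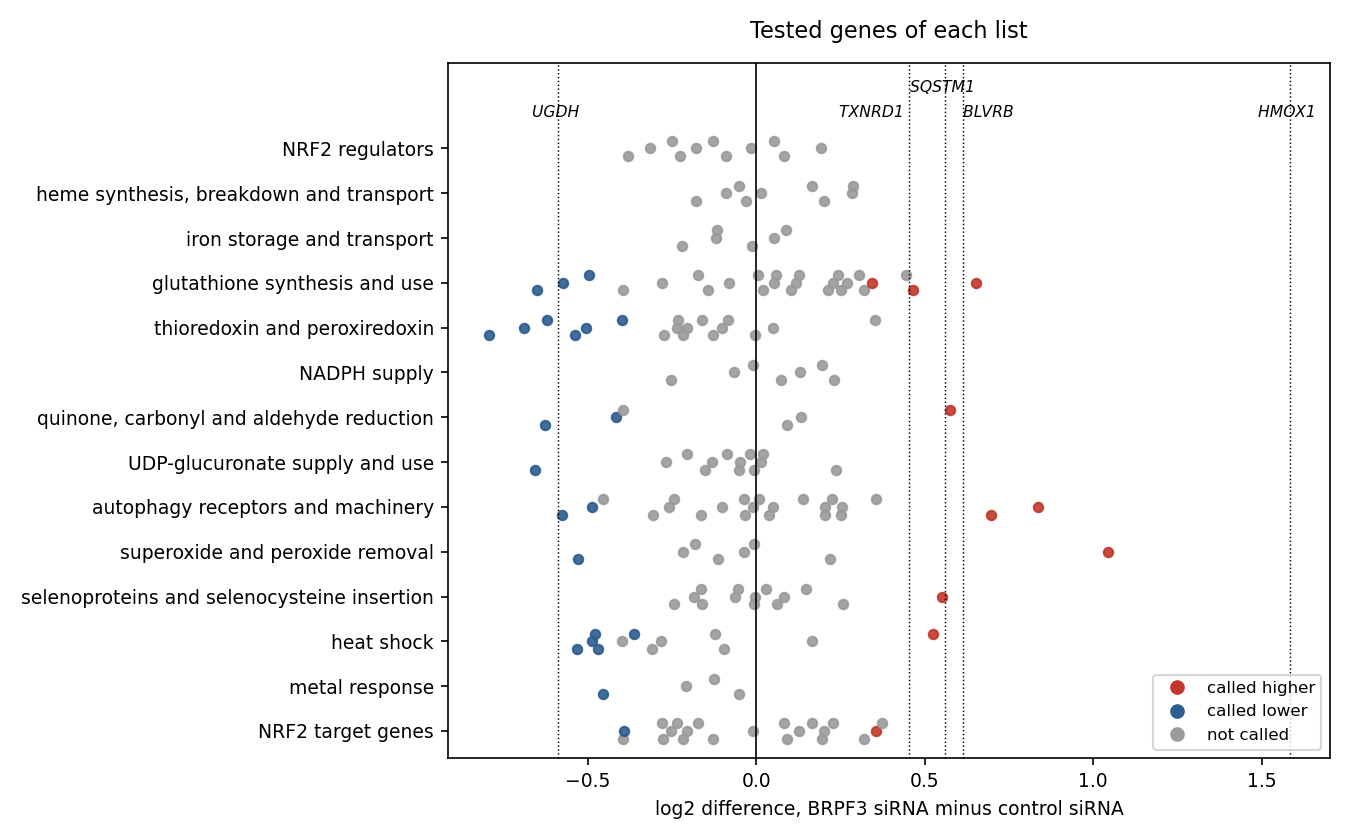
Log2 differences (BRPF3 siRNA minus control siRNA) of the tested genes of each of 14 lists, 1 row a list, with red for genes called higher, blue for genes called lower and grey for the rest; dotted lines mark the 5 genes. HMOX1, at 1.58, lies beyond every listed gene, while the 21 NRF2 target genes lie between -0.40 and 0.37.

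Among 11 tested regulators of NRF2 none was called by limma. An unadjusted p under 0.05 was found for 4 of the 11, against 3706 of all 10696 tested genes. With an intensity trend in eBayes 4 of the 11 were called lower, against 1609 of all 10696 tested genes. The intensity filter at the 75th percentile also gave 4 of the 11 called lower, against 1326 of 6407. NFE2L2 read 7.93 and 8.29 after BRPF3 siRNA, against 8.21 and 8.36 after control siRNA, so its groups overlapped (-0.18 ± 0.14, adjusted p = 0.397). KEAP1 (-0.23 ± 0.08, adjusted p = 0.101) and CUL3 (-0.31 ± 0.08, adjusted p = 0.0520) had lower levels that did not pass, as did DPP3, a peptidase that binds KEAP1 (-0.38 ± 0.11, adjusted p = 0.0639). The small MAF genes MAFF (0.19 ± 0.16, adjusted p = 0.449) and MAFG (0.08 ± 0.10, adjusted p = 0.625) did not pass either. BACH1 is not analysed here.

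HMOX1 and BLVRB belong to heme metabolism. Of 9 other tested genes of heme synthesis, breakdown and transport 0 were called by limma and 2 had an unadjusted p under 0.05. HMOX2, the constitutive heme oxygenase, read 7.95 and 7.91 after BRPF3 siRNA, against 7.99 and 7.97 after control siRNA (-0.05 ± 0.08, adjusted p = 0.685). BLVRA, the biliverdin reductase that acts on biliverdin IX alpha, differed by 0.20 ± 0.08 (adjusted p = 0.140). CPOX (0.29 ± 0.08, adjusted p = 0.0657) and FECH (0.16 ± 0.08, adjusted p = 0.220), enzymes of the last steps of heme synthesis, did not pass. FLVCR1, a heme exporter and the lowest of the list, did not pass either (-0.18 ± 0.09, adjusted p = 0.218). After quantile and cyclic loess normalization, with an intensity trend and with the 75th percentile filter 1 gene of the list was called higher. Of 6 tested genes of iron storage and transport 0 were called and 1 had an unadjusted p under 0.05, NCOA4, the ferritin receptor of autophagy (-0.22 ± 0.08, adjusted p = 0.106). The highest was HAMP, the hormone hepcidin (0.09 ± 0.11, adjusted p = 0.617), and 1 gene was called lower with the intensity trend or the 75th percentile filter.

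**Figure D3:**
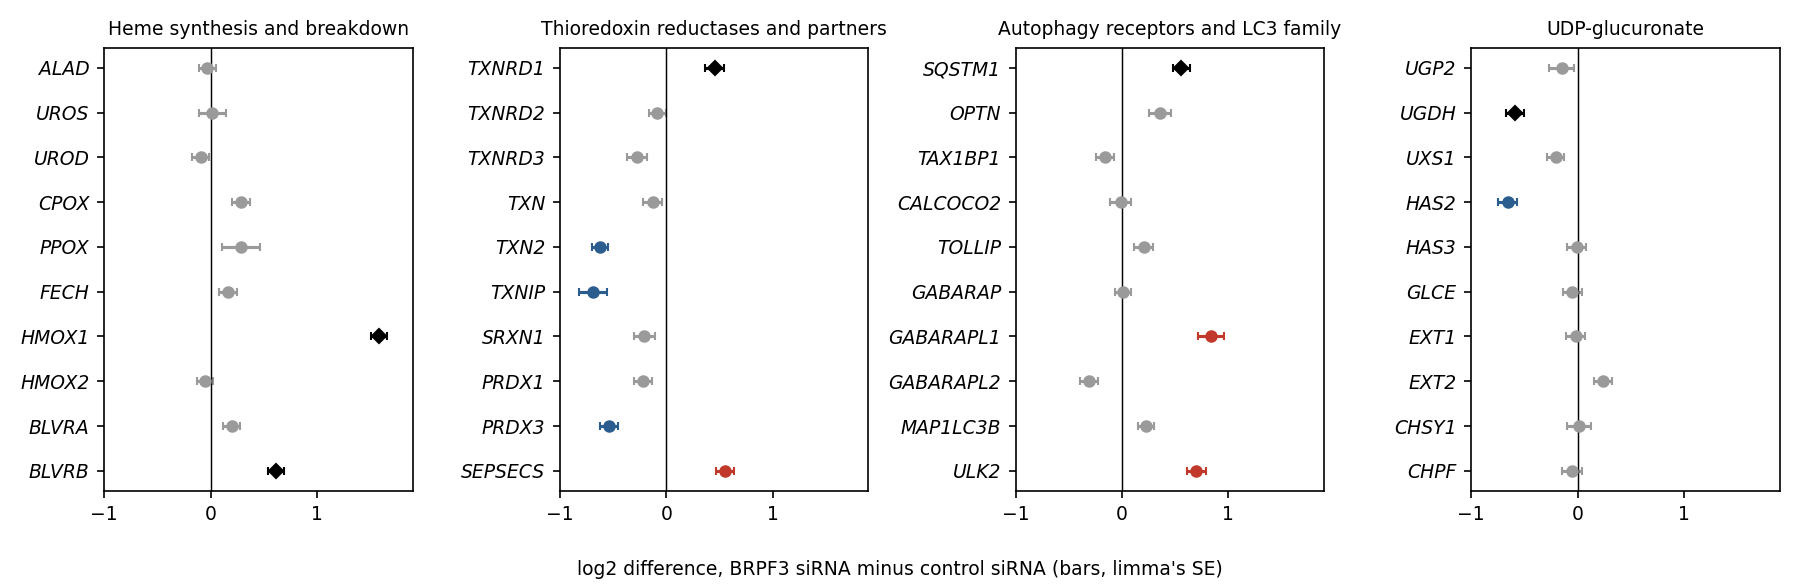
Log2 differences (BRPF3 siRNA minus control siRNA) with limma's SE for HMOX1, BLVRB, TXNRD1, SQSTM1 and UGDH (black diamonds) beside genes of the same pathways (red, called higher; blue, called lower; grey, not called; n = 2 arrays per group). HMOX2 lies at -0.05, TXN2 at -0.62, GABARAPL1 at 0.84 and HAS2 at -0.66.

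Around TXNRD1, 6 of 18 tested thioredoxin, peroxiredoxin and methionine sulfoxide reductase genes fell and 0 rose (33.3% called, against 15.8% of all tested genes). The median of this list was -0.23 (-0.13 after quantile normalization). The highest of the list was MSRA, a methionine sulfoxide reductase (0.35 ± 0.09, adjusted p = 0.0505). After median centring or cyclic loess normalization, with the intensity trend and with the 75th percentile filter 1 gene of the list was called higher. TXN2, the thioredoxin of mitochondria, read 8.72 and 8.72 after BRPF3 siRNA, against 9.35 and 9.32 after control siRNA, and fell by 0.62 ± 0.08 (adjusted p = 0.0126). PRDX3, the mitochondrial peroxiredoxin that TXN2 serves, fell by 0.54 ± 0.08 (adjusted p = 0.0184), and TXNIP, an inhibitor of thioredoxin, fell by 0.69 ± 0.13 (adjusted p = 0.0266). With the mean of all its probe sets TXNIP lay under the intensity bound and was not tested. In that setting 5 of 17 tested genes of the list fell. The methionine sulfoxide reductases MSRB1, a selenoprotein (-0.79 ± 0.16, adjusted p = 0.0317), and MSRB2, found in mitochondria (-0.50 ± 0.08, adjusted p = 0.0199), fell too, with TXNL1 (-0.40 ± 0.08, adjusted p = 0.0276). The BRPF3 siRNA arrays of MSRB1 stood apart from each other, at 7.20 and 6.71, against 7.78 and 7.71 after control siRNA. The other thioredoxin reductases TXNRD2 (-0.08 ± 0.08, adjusted p = 0.519) and TXNRD3 (-0.27 ± 0.10, adjusted p = 0.107) did not pass.

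Selenocysteine, which TXNRD1 carries at its active end, is made on its tRNA by SEPSECS. SEPSECS rose by 0.55 ± 0.09 (adjusted p = 0.0186), reading 8.18 and 8.07 after BRPF3 siRNA, against 7.63 and 7.52 after control siRNA. Of the 14 tested genes listed for selenoproteins and selenocysteine insertion it was the 1 called (7.14%, against 15.8% of all tested genes). On that list 0 fell (1 with the intensity trend). The selenoproteins MSRB1, which fell, and GPX4, which rose, were counted on other lists. The lowest of the list was SELENOK, a selenoprotein of the endoplasmic reticulum (-0.25 ± 0.08, adjusted p = 0.0919).

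Of 26 tested glutathione genes 3 rose and 3 fell (23.1% called, against 15.8% of all tested genes). The median was 0.11, and 18 of the 26 had a difference above 0. GSTT2 (0.65 ± 0.14, adjusted p = 0.0363), GSTM4 (0.46 ± 0.08, adjusted p = 0.0230) and GPX4, which reduces lipid hydroperoxides (0.34 ± 0.08, adjusted p = 0.0456), rose. GSTO1 (-0.65 ± 0.09, adjusted p = 0.0156), GPX8, a peroxidase of the endoplasmic reticulum (-0.57 ± 0.08, adjusted p = 0.0153), and GLRX3, a glutaredoxin (-0.50 ± 0.10, adjusted p = 0.0312), fell. GSTT2 and GSTM4 have close paralogs, so the share of each in its probe signal is uncertain. Of 7 tested genes of NADPH supply 0 were called by limma and 2 had an unadjusted p under 0.05, the dehydrogenase PGD (-0.25 ± 0.08, adjusted p = 0.0770) and the transhydrogenase NNT (0.23 ± 0.09, adjusted p = 0.141). With the intensity trend 1 of the 7 was called higher and 1 lower, and with the 75th percentile filter 1 was called lower.

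Of 6 tested genes of quinone, carbonyl and aldehyde reduction 1 rose and 2 fell (50% called, against 15.8% of all tested genes). VAT1, a relative of quinone oxidoreductases, rose by 0.58 ± 0.08 (adjusted p = 0.0158), and the reductases CBR4 (-0.63 ± 0.09, adjusted p = 0.0165) and PTGR2 (-0.42 ± 0.09, adjusted p = 0.0356) fell. Among 8 tested genes of superoxide and peroxide metabolism 1 rose and 1 fell (25% called). SESN2, the stress-induced sestrin 2, read 9.40 and 9.50 after BRPF3 siRNA, against 8.46 and 8.35 after control siRNA. Its rise of 1.04 ± 0.09 (2.06-fold, adjusted p = 0.00756) was the largest of the 161 tested list genes. SESN1 (-0.01 ± 0.12, adjusted p = 0.978) and SESN3 (-0.18 ± 0.10, adjusted p = 0.273) did not pass. NOX4, an oxidase that makes hydrogen peroxide, fell by 0.53 ± 0.09 (adjusted p = 0.0210), and catalase, CAT, did not pass (-0.04 ± 0.09, adjusted p = 0.790).

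Beside SQSTM1, 2 of 23 tested genes of autophagy receptors and machinery rose and 2 fell. The share called, 17.4%, was near the 15.8% of all tested genes. Their median was 0.01, and 0.11 after quantile normalization. GABARAPL1, a membrane-bound ATG8 protein that cargo receptors grip, read 7.21 and 7.54 after BRPF3 siRNA, against 6.49 and 6.58 after control siRNA (0.84 ± 0.13, 1.79-fold, adjusted p = 0.0171). The kinase ULK2, which starts autophagosome formation, rose by 0.70 ± 0.09 (adjusted p = 0.0136). TBK1, a kinase that phosphorylates cargo receptors, fell by 0.49 ± 0.10 (adjusted p = 0.0307). MAP1LC3B2 fell by 0.58 ± 0.08 (adjusted p = 0.0160), but it is a near copy of MAP1LC3B (0.22 ± 0.08, adjusted p = 0.100), so the share of each is uncertain. The receptors OPTN (0.36 ± 0.10, adjusted p = 0.0651) and TAX1BP1 (-0.16 ± 0.09, adjusted p = 0.235) did not pass.

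Beside UGDH, 1 of 13 tested genes of UDP-glucuronate supply and use fell and 0 rose (7.69% called, against 15.8% of all tested genes). HAS2, a synthase that builds hyaluronan from UDP-glucuronate, read 6.37 and 6.21 after BRPF3 siRNA, against 6.97 and 6.93 after control siRNA, and fell by 0.66 ± 0.09 (1.58-fold lower, adjusted p = 0.0150). UGP2, which makes the UDP-glucose that UGDH uses (-0.15 ± 0.12, adjusted p = 0.401), and UXS1, which turns UDP-glucuronate into UDP-xylose (-0.21 ± 0.08, adjusted p = 0.131), did not pass, nor did HAS3 (-0.01 ± 0.09, adjusted p = 0.959) or the heparan sulfate polymerase EXT2, the highest of the list (0.24 ± 0.09, adjusted p = 0.115). With the intensity trend 1 gene was called higher and 3 lower, and with the 75th percentile filter 1 higher and 2 lower.

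**Figure D4:**
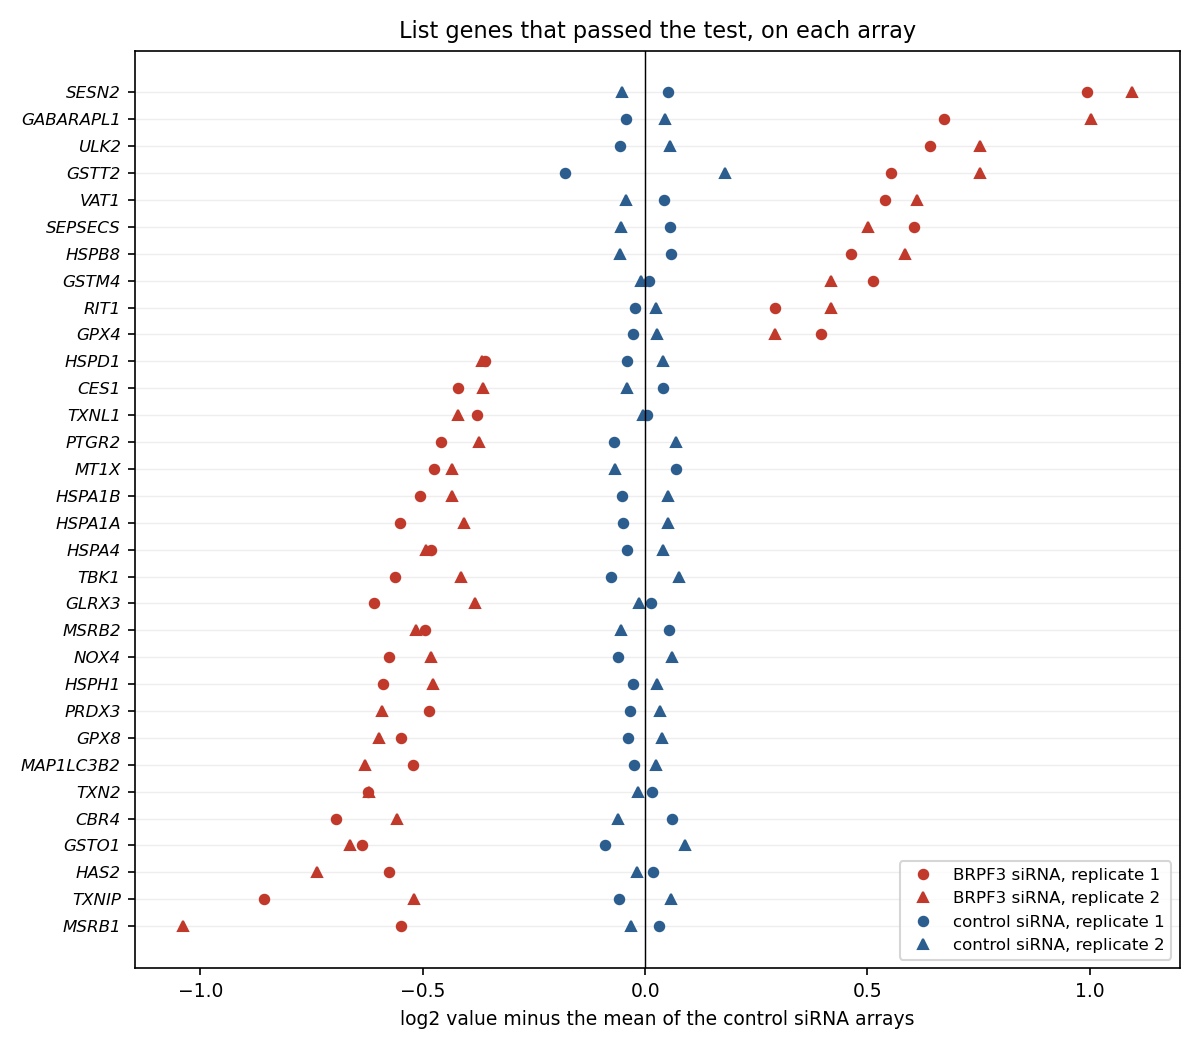
Values on each array, as log2 value minus the mean of the control siRNA arrays, for the 32 list genes that passed the test (red, BRPF3 siRNA; blue, control siRNA; circles, replicate 1; triangles, replicate 2). The 10 risen genes are led by SESN2 and the 22 fallen genes end with MSRB1 and TXNIP.

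All 32 calls among the listed genes were lost without control siRNA replicate 1 and without control siRNA replicate 2, where the lowest adjusted p was 0.0699, and 13 and 18 were kept without BRPF3 siRNA replicate 1 and 2. Without an intensity filter 8 were kept. Those kept without either BRPF3 siRNA array included SESN2, GABARAPL1, ULK2, VAT1, TXN2, MSRB1, GSTO1, GPX8 and HAS2. None of the 32 changed direction, but they had been called on the same arrays. As the groups of these genes did not overlap, leaving out 1 array could not reverse a direction. The variance models, the intensity filters and the replicate block leave each difference unchanged.

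Few markers of the cell type had values. The mesenchymal filament VIM read 10.49 after BRPF3 siRNA and 10.36 after control siRNA on average, and RUNX2, the osteoblast regulator, 6.31 and 6.47. The bone matrix gene IBSP lay under the intensity bound of 4.59 in both groups (2.61 and 2.59). Of the same osteoblast and mesenchymal list TWIST1 lay under the bound (3.44 and 2.97) and SP7 near it (4.57 and 4.75). The macrophage marker CD163, of a cell type rich in HMOX1, lay under the bound as well (3.53 after BRPF3 siRNA and 3.52 after control siRNA), and CD14 did too (4.15 and 4.04). MARCO, of the same macrophage and erythroid list, lay above the bound (5.02 after BRPF3 siRNA and 4.91 after control siRNA). EPB42 of that list lay just above it (4.61 and 4.63). CD68, a lysosomal protein of many cells, lay well above it, at 8.55 after BRPF3 siRNA and 8.54 after control siRNA. The difference of CD68 was 0.01 ± 0.14 (adjusted p = 0.959 in limma). Of the 3 macrophage and erythroid, 3 osteoblast and mesenchymal, and 4 epithelial and liver markers tested 0 were called by limma and 1 had an unadjusted p under 0.05. That was EPCAM, an epithelial adhesion molecule, at 8.14 and 8.22 after BRPF3 siRNA, against 7.94 and 7.90 after control siRNA (0.27 ± 0.08, adjusted p = 0.0754). After quantile normalization, with the intensity trend and with the 75th percentile filter 1 epithelial or liver marker was called higher, and its part in the results above was not tested. In such bulk samples more cells with a transcript and more transcript per cell cannot be told apart.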

How the data were processed

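Affymetrix arrays measured the RNA of 4 U2OS samples, 1 array a sample. The authors deposited log2 values for 53617 probe sets, made with RMA per the submitters' processing notes, which give no version or settings. RMA is meant to bring arrays to a common distribution, so a difference is relative to the other transcripts, and it compresses differences of dim probe sets. The deposited arrays still differed in distribution. Quantile normalization of their values changed 676 higher and 1010 lower genes to 764 and 718, and the difference of HMOX1 from 1.58 to 1.66. The number of arrays limits precision, and no label says whether replicates came from separate cultures, so p-values reflect array-to-array spread, which may be technical.

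Platform annotation named 16098 probe sets, all matched by gene identifier to RefSeq. The probe set with the highest mean stood for each of 14884 genes, and genes whose mean was below 4.59, the median over probe sets, were not tested. Groups from the sample titles were compared on 10696 genes with limma 3.58.1 in R 4.3.3 (lmFit, eBayes, two-sided, 2 residual and 3.81 prior degrees of freedom), adjusted by Benjamini-Hochberg and called under 0.05. The 5 genes, the lists and the settings were chosen with earlier results of these data known. The genes named are the 5, those nearest to HMOX1, those fixed by name, the called genes of each list and up to 2 each of its highest and lowest. Some markers and some relatives that did not pass were named by free choice. These relatives include FECH, HAS3, TXNRD3, OPTN, SESN1, SESN3, BAG3 and HSF1. The alternatives were 3 normalizations, a replicate block, 2 variance models, 2 intensity filters, the mean of probe sets, and leaving out each array.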

Additional observations from a re-analysis of the deposited data

How the results depend on the processing

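The number of genes called, 1686 in the comparison as reported, was 2645 with an intensity trend in eBayes and 409 without an intensity filter, where more and dimmer genes were tested, and ran from 0 to 791 with 1 array left out. It was 0 without control siRNA replicate 1 or 2 (2446 and 2477 genes at an unadjusted p under 0.05 in limma), where the fit takes the spread of the 1 remaining control array from the BRPF3 siRNA group. The other alternatives gave 1482 to 2183. The NRF2 target genes called higher, 1 as reported, were 2 with quantile normalization, the replicate block, an intensity trend or the filter at the 75th percentile, and 0 without a filter or without any 1 array. Those called lower, also 1, were 2 with the replicate block or the 75th percentile filter, 6 with an intensity trend, and 0 with the mean of all probe sets, without a filter or without any 1 array. At an unadjusted p under 0.05 in limma with all 4 arrays were 10 of the 21 tested genes of this list, against 3706 of all 10696.

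With the replicate block 1604 genes were called and GPX4 lost its call. Deviations of same-numbered arrays correlated at 0.14 over the tested genes, and the labels name no shared batch, so the numbers were not taken as pairs. Quantile normalization ended the calls of HSPA1A, HSPD1 and MT1X, and cyclic loess that of HSPD1. For the 5 genes, the log2 differences were followed over 9 settings each. HMOX1 ran from 1.55 to 1.66, BLVRB from 0.60 to 0.70 and TXNRD1 from 0.37 to 0.54. SQSTM1 ran from 0.52 to 0.62 and UGDH from -0.64 to -0.50. No direction changed, but leaving out 1 array could not reverse one, as the arrays of the groups did not overlap. The replicate block and the mean of probe sets left each difference unchanged. The cause of the shifts in the other settings was not tested.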

Other observations

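Among 12 tested heat shock genes 5 fell and 1 rose after BRPF3 siRNA (50% called, against 15.8% of all tested genes). Their median log2 difference was -0.34 (-0.29 after quantile normalization, where 3 fell and 1 rose). HSPH1, a cofactor of HSP70 chaperones, fell by 0.53 ± 0.08 (adjusted p = 0.0186 in limma), HSPA4 fell by 0.49 ± 0.08 (adjusted p = 0.0198) and the mitochondrial chaperonin HSPD1 fell by 0.36 ± 0.08 (adjusted p = 0.0365). The stress-inducible HSP70 genes HSPA1A (-0.48 ± 0.09, adjusted p = 0.0272) and HSPA1B (-0.47 ± 0.08, adjusted p = 0.0242) are near-identical and count as 1 observation at most. HSPB8, a small heat shock protein of chaperone-assisted autophagy, rose by 0.52 ± 0.09 (adjusted p = 0.0225), reading 5.26 and 5.38 after BRPF3 siRNA, against 4.85 and 4.74 after control siRNA. Its partner BAG3 (-0.09 ± 0.09, adjusted p = 0.501) and the regulator HSF1 (-0.12 ± 0.09, adjusted p = 0.365) did not pass. All of these calls were lost without either control siRNA array.

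Of 4 tested genes of the metal response MT1X, a metallothionein, fell by 0.45 ± 0.09 (adjusted p = 0.0271 in limma) and 0 rose. The share called was 25%, against 15.8% of all tested genes. MT1E, the highest of the list (-0.05 ± 0.14, adjusted p = 0.818), MT2A (-0.21 ± 0.09, adjusted p = 0.178) and the regulator MTF1 (-0.13 ± 0.08, adjusted p = 0.307) did not pass. MT1X did not pass after quantile normalization, nor without any 1 of the 4 arrays (adjusted p of 0.0656 to 0.151), and metallothionein genes are close paralogs, so the share of each is uncertain.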
